A study of Mus musculus with 14 samples.

Results

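The enzymes, readers and Polycomb proteins described here are 10 genes tied to the stability of the Foxp3 locus: the maintenance pair Dnmt1 and Uhrf1, the de novo methyltransferases Dnmt3a and Dnmt3b, the 5-methylcytosine oxidases Tet1, Tet2 and Tet3, the methyl-CpG reader Mbd2, and the Polycomb repressive complex 2 (PRC2) subunits Ezh2 and Eed. They were chosen by name, through the platform's gene symbols, out of 18193 genes with a probe set of a single symbol. They had 24 such probe sets, of which 22 passed the filter on dim signals, and all 10 genes kept at least 1. The other 2, a probe set each of Tet1 and Eed, were too dim to test. Each gene is counted by its brightest probe set, as were 12166 genes in all.

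DNA methylation at CpG sites is copied after replication by Dnmt1, which Uhrf1 brings to hemimethylated DNA, while Dnmt3a and Dnmt3b can methylate new sites. Tet enzymes oxidise 5-methylcytosine and so open the way to its loss, and Mbd2 binds methylated CpG sites and is known to recruit the NuRD deacetylase complex. PRC2, with Ezh2 as its catalytic subunit and Eed as the subunit that binds its product, trimethylates lysine 27 of histone H3. In regulatory T cells (Treg cells, CD4 T cells that depend on the transcription factor Foxp3), an intronic enhancer of Foxp3 is demethylated, and loss of that state is known to destabilise Foxp3.

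Treg RNA was hybridised to 14 one-colour Affymetrix mouse arrays of 45101 probe sets, and all samples derived from 129/SvJ (H-2b) Foxp3-ires-GFP knock-in mice, in which GFP marks Foxp3-expressing cells. The 6 naive samples came from the spleens of resting mice. The series design sets naive replicates 1 to 3 against Treg cells taken in graft-versus-host disease (GVHD), and naive replicates 4 to 6 against those activated by an allogeneic tumor. For the 3 GVHD-activated samples, BALB/c hosts (H-2d) had received 900 cGy, 2000000 wild-type 129/SvJ bone marrow cells and 2000000 CD4+ and CD8+ T cells of knock-in donors, and Treg cells were sorted from their spleens on day 4. The 5 tumor-activated samples were sorted from ascites of knock-in mice on day 5 after 1000000 cells of P815, a DBA/2 (H-2d) mastocytoma line, had been given intraperitoneally. Sort purity was over 95% by the labels of these groups and of naive replicates 4 to 6. The text attached to naive replicates 1 to 3 gives no purity and also describes mice bearing another tumor, RMAS. No label gives an age or says which samples shared an animal, so the p-values below measure the spread between samples.

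The arrays of the 2 settings did not hold like mixtures of RNA. Summed over 16 T cell receptor and lineage genes, the scaled signal was 145634 to 168548 in naive replicates 1 to 3 and 129427 to 144116 in GVHD, against 99648 to 122782 in naive replicates 4 to 6 and 9998 to 62161 in the tumor group. Macrophage and monocyte genes (16 in all) summed to 58086 to 125011 in the tumor arrays and to 820 to 10908 in naive replicates 4 to 6, and 15 mast cell and P815 genes summed to 90906 to 180704 against 12569 to 24244. In the tumor comparison 13 of the 16 T cell genes fell, while 15 of 16 macrophage genes and 10 of 13 tested mast cell genes rose, and 6 of 7 B cell genes fell. Of 5 CD8 T and NK cell genes 3 fell and 1 rose (Klrd1, 2.18-fold). Of all genes 16% rose and 15.3% fell there, and 9.58% rose and 12.2% fell in GVHD. In GVHD none of the T cell, macrophage and B cell genes was called by limma, 1 of 5 CD8 T and NK cell genes and 2 of 13 mast cell genes fell, and at an unadjusted p under 0.05 the first 3 lists gave 1 lower, 0 and 1 higher. Tumor-activated replicate 3 stood apart, with Cd3e at 39.5, Cd4 at 21.6 and 37.3% of its probe sets at a signal of 100 or more, against 45.6% to 55.4% on the other arrays. Naive replicate 6 held Arg1 at 4882 and Trap1a at 1402, which were 5.4 to 14.9 and 6.8 to 16.9 in naive replicates 4 and 5. The Foxp3 probe set read at most 108 on every array and does not check the sort. GVHD arrays had been deposited on a scale 3 times that of their controls, so that any batch behind this cannot be told apart from the group.

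In GVHD-activated Treg cells, the genes that copy DNA methylation and the PRC2 genes were higher than in naive replicates 1 to 3. Uhrf1 was 25.1-fold higher, Dnmt1 6.19-fold, Ezh2 4.18-fold, Mbd2 2.21-fold and Eed 1.70-fold, while Tet1 was 3.75-fold lower. A gene was called where limma's adjusted p (Benjamini-Hochberg over 22143 probe sets) was under 0.05. By that rule 5 of the 10 genes rose and 1 fell (Tet1, which passed the filter on low signals only through naive arrays), where 9.58% of all 12166 genes rose and 12.2% fell. By probe sets, 9 of 22 rose and 3 fell, against 8.69% and 11.9% of all. The GVHD and naive arrays did not overlap for 9 of the 10 genes, all but Tet3, as was so for 48.8% of all genes. The median change of the 10 genes was 0.15 on the log2 scale, beside -0.11 for all genes. The size of the rises depended on the control set. Against naive replicates 4 to 6 Uhrf1 was 7.24-fold, Ezh2 2.46-fold and Mbd2 2.13-fold higher in GVHD. Dnmt1 (2.83-fold) and Eed (1.19-fold) were not called there, and Tet1 was 4.72-fold lower.

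In tumor-activated Treg cells, set against naive replicates 4 to 6, Ezh2 was 2.17-fold and Uhrf1 2.47-fold higher, and Tet1 was 4.71-fold and Tet2 2.88-fold lower. Dnmt1 did not pass (log2 change 0.03, 95% interval -1.04 to 1.11). The count was 2 of 10 genes up and 2 down, against 16% and 15.3% of all genes, and the arrays did not overlap for these 4 genes, as was so for 34.5% of all genes. Tet1, counted among those down, passed the filter on low signals only through naive arrays. Its call and its lack of overlap are therefore given as a description. These shares lie near the background. Signal in a sorted bulk sample cannot tell fewer cells of a type from less RNA per cell, and the part of other cells in these changes was not tested. When every array was centred on its T cell genes instead, the change of Ezh2 became 3.09 and that of Uhrf1 3.28, Tet1 no longer passed (-0.27, adjusted p = 0.71) and Tet2 turned to 0.44 (adjusted p = 0.33).

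**Figure D1:**
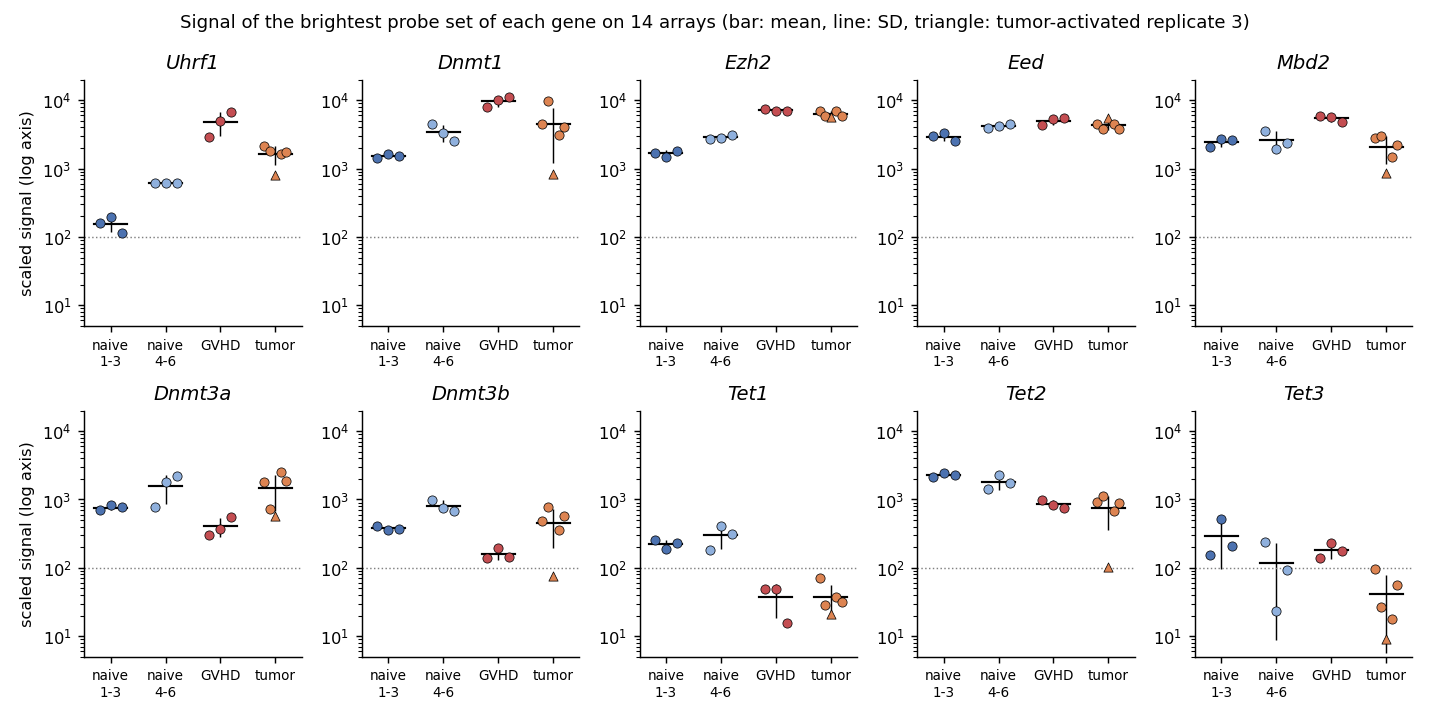
Scaled signal of the brightest probe set of each gene on a log axis, 1 point per array, for naive replicates 1 to 3, naive replicates 4 to 6, GVHD-activated (n = 3) and tumor-activated (n = 5) samples, with the group mean as a bar, the SD as a line and tumor-activated replicate 3 as a triangle. The dotted line is the filter value of 100. Uhrf1, Dnmt1, Ezh2, Eed and Mbd2 are highest in GVHD by group mean, Dnmt3a and Dnmt3b are lowest there, and Tet1 lies under 100 on all 8 activated arrays.

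The sequence round the transcript starts of the members, which the choice by name did not use, is described here. RefSeq windows of the GRCm38.p6 build, from 250 bases before to 50 after each transcript start, were found for 9 of the 10 genes, Mbd2 being the other. They were searched on both strands for 4 E2F-like words (TTTCCCGC, TTTGGCGC, TTTCGCGC and TTTGCCGC), E2F being the factor family of the G1 to S transition, and for CCAAT, the word bound by NF-Y. Of the 9 genes, 3 (33.3%) held an E2F-like word in a window: Uhrf1 and Dnmt1, each at only 1 of its listed starts, and Ezh2. Windows of Dnmt3a, Dnmt3b, Tet1, Tet2, Tet3 and Eed held none. The background was 2.26% of 32851 windows and 2.6% of 27025 genes. Whether the words bear on the changes was not tested. Among windows with at least 30 CpG the share was 5.06%, and among 27 cell cycle genes 8 (29.6%) held one. CCAAT was found in windows of 5 of the 9 genes, in 41.1% of all genes with a window, in 70.4% of the cell cycle genes and in 37.4% of all windows. The matches describe these letters and not binding, which was not measured.

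The pieces that hold the matches follow, read along the gene's strand, with the E2F-like words in capitals and, in the pieces of 250 bases, CCAAT or its complement ATTGG in capitals too. The Uhrf1 piece is chr17:56304063-56304312 (+ strand), the 250 bases before one of 2 listed starts, with its E2F-like word at -185 to -178. The Dnmt1 pieces are chr9:20952824-20952853 and chr9:20952574-20952603 (- strand), with words at -219 to -212, on the opposite strand, and at 34 to 41 of one of 3 listed starts. The Ezh2 pieces are chr6:47595031-47595280, before the start and without an E2F-like word, and chr6:47595009-47595038 (- strand), with the word at 4 to 11.
Uhrf1, before the start: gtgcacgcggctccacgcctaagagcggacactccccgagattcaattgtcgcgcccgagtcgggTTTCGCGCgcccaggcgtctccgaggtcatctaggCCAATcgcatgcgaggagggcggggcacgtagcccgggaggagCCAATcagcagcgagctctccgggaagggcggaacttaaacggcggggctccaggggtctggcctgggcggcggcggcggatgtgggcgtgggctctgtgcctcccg
Dnmt1, before the start: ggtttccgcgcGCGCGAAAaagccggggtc
Dnmt1, after the start: gcgcggggcagcgTTTGGCGCgggctgtgc
Ezh2, before the start: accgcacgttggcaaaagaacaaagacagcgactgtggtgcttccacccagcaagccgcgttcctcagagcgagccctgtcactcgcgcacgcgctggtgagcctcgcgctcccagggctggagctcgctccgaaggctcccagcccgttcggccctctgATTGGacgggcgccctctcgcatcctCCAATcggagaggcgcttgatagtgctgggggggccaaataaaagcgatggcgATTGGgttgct
Ezh2, across the start: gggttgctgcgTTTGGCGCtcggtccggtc

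Uhrf1 is the ubiquitin ligase that recognises hemimethylated CpG sites. Its signal (probe set 1415810_at) was 160, 193 and 115 in naive replicates 1 to 3 and 612, 607 and 611 in naive replicates 4 to 6. It was 2907, 4999 and 6744 on the GVHD arrays and 2157, 1784, 802, 1661 and 1760 on the tumor arrays. No array of a group overlapped an array of another group, and tumor-activated replicate 3 was the lowest of its group. The order of the means was naive replicates 1 to 3 (156 ± 39.1, SD, n = 3), naive replicates 4 to 6 (610 ± 2.25, n = 3), tumor (1633 ± 501, n = 5) and GVHD (4883 ± 1921, n = 3), and each neighbour differed from the next. The log2 changes were 4.65 in GVHD (SE 0.36, adjusted p = 2.0e-07), 1.31 in the tumor comparison (SE 0.32, adjusted p = 0.0071) and 1.79 between the naive sets (SE 0.36, adjusted p = 0.0089). Among 12166 genes the GVHD rise ranked 43rd from the top. The dimmer probe set 1415811_at gave 3.97 and 1.34, both called.

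Dnmt1, the maintenance methyltransferase itself, was read by 3 probe sets that correlated at 0.89 to 0.96 over the 14 arrays. The brightest, 1435122_x_at, is of a type whose probes may also match other transcripts. Its signal was 1417, 1640 and 1506 in naive replicates 1 to 3 and 4442, 3360 and 2530 in naive replicates 4 to 6. In GVHD it was 7863, 10024 and 11104, above every naive array. On the tumor arrays it was 4548, 9635, 827, 3141 and 4110, a spread from the lowest of the 14 arrays to the third highest. The rise in GVHD was 2.63 on the log2 scale (SE 0.57, adjusted p = 0.0038), and the other probe sets gave 2.57 to 2.76, all called. Against naive replicates 4 to 6 the GVHD change was 1.50 (adjusted p = 0.054) and no longer passed, although 1422946_a_at did (1.81, adjusted p = 0.0095). The naive sets did not overlap, and their difference of 1.13 did not pass (adjusted p = 0.24), but it did with tumor-activated replicate 3 left out of the shared spread (1.13, adjusted p = 0.022). There was no call between naive replicates 4 to 6 and tumor, and GVHD stood above tumor (tumor minus GVHD -1.47, adjusted p = 0.035).

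The 2 changes of Uhrf1 and of Dnmt1 differed from each other. The tumor change minus the GVHD change was -3.34 for Uhrf1 (SE 0.49, adjusted p = 0.00049) and -2.60 for Dnmt1 (SE 0.76, adjusted p = 0.046). No other gene of the 10 passed this limma test, which called 3.02% of all genes lower and 6.74% higher. At an unadjusted p under 0.05 it gave 5 of the 10 lower and 0 higher. Ezh2 came to -0.94 (adjusted p = 0.057) and Mbd2 to -1.56 (adjusted p = 0.082). The tumor and GVHD arrays have separate controls here, and the naive sets themselves differed in Uhrf1, so this difference contains the gap between controls. With tumor-activated replicate 3 left out, Ezh2 (-0.91, adjusted p = 0.011), Mbd2 (-1.29, adjusted p = 0.026) and Eed (-0.79, adjusted p = 0.036) passed as well. Over all probe sets, those called lower in this test numbered 556 with all arrays and 320 to 1067 with arrays left out in turn. The call for Dnmt1 was lost when any one of the 6 naive arrays, the 3 GVHD arrays or tumor-activated replicates 4 and 5 was left out.

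Dnmt3a and Dnmt3b, the de novo methyltransferases, had their lowest group means in GVHD. Dnmt3a (1423063_at) read 690, 828 and 768 in naive replicates 1 to 3, 775, 1804 and 2182 in naive replicates 4 to 6, 307, 372 and 547 in GVHD, and 1806, 728, 577, 2488 and 1840 in the tumor group. The GVHD arrays lay below all other arrays, and the tumor and naive 4 to 6 arrays overlapped. The GVHD change of -0.88 (SE 0.49, adjusted p = 0.22) did not pass, whereas that against naive replicates 4 to 6 did (-1.79, adjusted p = 0.012). Its 5 probe sets did not move as one: 1460324_at fell in GVHD (-1.51, adjusted p = 0.029), and the dim 1423064_at, at means of 113 to 175 in the 4 groups, had a change of 0.51 that did not pass. Dnmt3a was called higher in tumor than in GVHD (1.62, adjusted p = 0.0098), as were 19.5% of all genes, and Dnmt3b was called too without tumor-activated replicate 3 (1.57, adjusted p = 0.00013). With all arrays, Dnmt1, Uhrf1, Tet3 and Mbd2 were lower, as were 17.7% of all genes. Of these, Tet3 passed the filter on low signals only through naive and GVHD arrays.

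Dnmt3b (1449052_a_at) read 415, 361 and 366 in naive replicates 1 to 3, 995, 760 and 688 in naive replicates 4 to 6, and 140, 197 and 144 in GVHD. The tumor arrays read 488, 788, 76, 355 and 580. GVHD lay below both naive sets with no overlap, while the tumor arrays overlapped all 3 other groups. The changes were -1.11 in GVHD (SE 0.52, adjusted p = 0.15) and -1.05 in the tumor comparison (SE 0.47, adjusted p = 0.10), and neither passed. Tumor-activated replicate 3, which has no part in the GVHD comparison, widens the spread that the fit shares over all groups: without it, Dnmt3b (-1.11, adjusted p = 0.0043) and Tet2 (-1.39, adjusted p = 0.00014) joined Tet1, and 3 genes rather than 1 fell in GVHD. Calls over all probe sets moved with the arrays too. Those lower in GVHD numbered 2630 with all arrays and 1629 to 4409 with arrays left out in turn. By its brightest probe set Dnmt3b also passed against naive replicates 4 to 6 (-2.14, adjusted p = 0.0060). The second probe set, 1418351_a_at, correlated with the first at 0.79. Its means were 367 in naive replicates 1 to 3, 320 in naive replicates 4 to 6, 195 in GVHD and 275 in the tumor group. It was thus lowest in GVHD as well, but naive replicates 4 to 6 did not stand above 1 to 3.

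**Figure D2:**
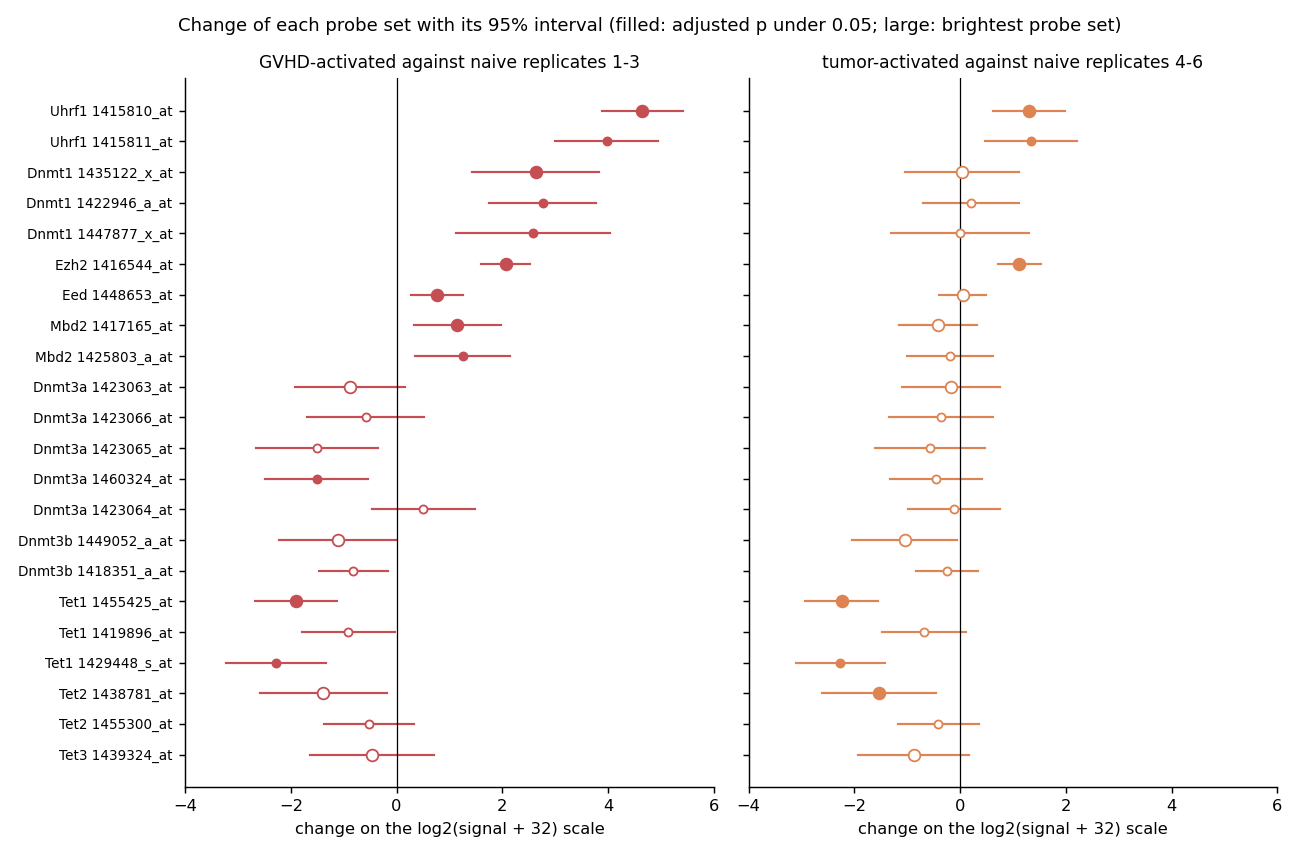
Change of each of the 22 probe sets on the log2(signal + 32) scale with its 95% interval, in GVHD-activated against naive replicates 1 to 3 (left) and tumor-activated against naive replicates 4 to 6 (right). Filled points have an adjusted p under 0.05 and large points are the brightest probe set of a gene. All probe sets of Uhrf1, Dnmt1, Ezh2 and Mbd2 lie to the right of 0 and are filled in GVHD, and in the tumor comparison only Uhrf1 and Ezh2 are filled on that side.

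Tet1 was low in both activated groups. Its tested probe sets reached a signal of 100 only on naive arrays. They thus passed the filter only through the groups where they are high, and the falls below are a description. Its brightest probe set, 1455425_at, read 252, 186 and 233 in naive replicates 1 to 3, and 181, 414 and 314 in naive replicates 4 to 6. It read 48, 50 and 16 in GVHD and 70, 29, 21, 37 and 32 in the tumor group, so that every activated array lay below every naive array and below 100. The changes were -1.91 in GVHD (SE 0.36, adjusted p = 0.0015) and -2.24 in the tumor comparison (SE 0.33, adjusted p = 0.00012), and the means of GVHD (37.9 ± 19.4, n = 3) and tumor (37.9 ± 19.1, n = 5) were alike, with a difference of 0.00 (95% interval -0.69 to 0.69). At these low signals the offset of 32 holds the fold down. The probe set 1429448_s_at fell in both comparisons as well (-2.28 and -2.26), while 1419896_at, near 100 in the naive arrays, did not pass in either. Centred on T cell genes, the GVHD change was -1.43 (adjusted p = 0.46).

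Tet2, an oxidase known to act at the Foxp3 enhancer, read 2159, 2459 and 2261 (1438781_at) in naive replicates 1 to 3 and 1427, 2283 and 1741 in naive replicates 4 to 6. In GVHD it read 998, 827 and 760, and in the tumor group 927, 1126, 101, 689 and 896. All 8 activated arrays lay below all 6 naive arrays. The tumor change passed (-1.53, SE 0.51, adjusted p = 0.032) and the GVHD change did not (-1.39, SE 0.57, adjusted p = 0.098), and the difference between them was -0.14 (95% interval -1.76 to 1.47). The tumor call was lost without naive replicate 4, 5 or 6. Without tumor-activated replicate 3, which read 101, the tumor change shrank to -0.97 and still passed (limma's adjusted p = 0.0017). The GVHD change then passed too (-1.39, limma's adjusted p = 0.00014). The second probe set, 1455300_at, correlated with the first at 0.50 only and passed in neither (-0.52 and -0.41).

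Tet3 was dim and uneven, at 155, 526 and 208 in naive replicates 1 to 3, 238, 24 and 93 in naive replicates 4 to 6, 139, 231 and 178 in GVHD, and 98, 27, 9, 18 and 56 in the tumor group (1439324_at, its one probe set). The tumor arrays lay below the GVHD arrays (tumor minus GVHD -1.65, adjusted p = 0.018). Neither change against its own controls passed (-0.47, adjusted p = 0.60 in GVHD and -0.87, adjusted p = 0.20 in the tumor comparison), and the GVHD value turned to 0.78 against naive replicates 4 to 6.

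Mbd2 read 2046, 2722 and 2588 (1417165_at) in naive replicates 1 to 3, and 3609, 1919 and 2347 in naive replicates 4 to 6. In GVHD it read 5845, 5698 and 4794, above every other array. The tumor arrays, at 2820, 3005, 872, 1493 and 2193, overlapped both naive sets. The rise in GVHD was 1.15 (SE 0.39, adjusted p = 0.046), near the threshold. It held against naive replicates 4 to 6 (1.09, adjusted p = 0.043), and tumor lay below GVHD by a log2 difference of -1.50 (adjusted p = 0.0036). The call was lost without any one of the 3 control arrays (naive replicates 1, 2 and 3), any GVHD array, or naive replicate 5 or 6 or tumor-activated replicate 4 or 5. The second probe set, 1425803_a_at, gave 1.25 (adjusted p = 0.049).

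Ezh2, the H3K27 methyltransferase that activated Treg cells are known to need to hold their identity, was tight within every group. It read 1710, 1501 and 1837 (1416544_at) in naive replicates 1 to 3, 2718, 2855 and 3056 in naive replicates 4 to 6, 7357, 7038 and 6961 in GVHD, and 7019, 5956, 5775, 6962 and 5838 in the tumor group. All 8 activated arrays lay above all 6 naive arrays. Tumor-activated replicate 3, with its T cell genes near the floor, still read 5775, against 5838 to 7357 on the other activated arrays. Its mast cell and P815 genes (180704) and macrophage and monocyte genes (125011) had the highest sums of all arrays. The part of such cells in the Ezh2 signal of the tumor group was not tested. The changes were 2.06 in GVHD (SE 0.22, adjusted p = 5.0e-06) and 1.12 in the tumor comparison (SE 0.19, adjusted p = 0.00055). By level, naive replicates 4 to 6 stood above 1 to 3 (0.77, adjusted p = 0.043), and tumor and GVHD did not differ beyond their spread (-0.18, 95% interval -0.59 to 0.23). Centred on T cell genes the GVHD change was 2.54 with an adjusted p of 0.055.

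Eed, the PRC2 subunit that binds trimethylated H3K27, varied least. It read 3042, 3286 and 2523 (1448653_at) in naive replicates 1 to 3, 3931, 4144 and 4538 in naive replicates 4 to 6, 4332, 5327 and 5475 in GVHD, and 4496, 3798, 5473, 4434 and 3806 in the tumor group. Naive replicates 1 to 3 lay below all other arrays, and the other groups overlapped. The change was 0.77 in GVHD (SE 0.24, adjusted p = 0.029) and 0.06 in the tumor comparison (adjusted p = 0.87). Against naive replicates 4 to 6 the GVHD value was 0.26 (adjusted p = 0.43), and the call was also lost without naive replicate 1 or 3 or GVHD-activated replicate 2 or 3.

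The naive sets differed in part of the same genes. Set against naive replicates 1 to 3, naive replicates 4 to 6 were higher in Uhrf1 and Ezh2, 2 of the 10 genes against 4.21% of all genes, and none of the 10 fell (3.09% of all genes), with 3 higher and 1 lower at limma's unadjusted p under 0.05. The call for Ezh2 was lost when any of 12 arrays was left out, all but tumor-activated replicates 2 and 3. The arrays of both sets did not overlap for 5 of the 10 genes, as for 40.1% of all genes. The 30 measured cell cycle genes moved with this, with 15 higher, none lower (20 and 0 at an unadjusted p under 0.05) and a median change of 1.18, and the 3′ to 5′ signal ratio of the Gapdh control probe sets, a sign of RNA or labelling quality, was 7.45 to 19.1 in naive replicates 4 to 6 and 4.27 to 5.11 in 1 to 3. The ratio was 3.28 to 4.50 in GVHD, 19.9 on tumor-activated replicate 2 and 2.19 to 2.64 on the other tumor arrays. Their part in the difference was not tested. With the controls exchanged, Uhrf1, Ezh2 and Mbd2 were higher and Dnmt3a, Dnmt3b and Tet1 lower in GVHD than in naive replicates 4 to 6, where 14.9% and 17.5% of all genes were called. Uhrf1, Ezh2 and Eed were higher and the 3 Tet genes lower in the tumor group than in naive replicates 1 to 3, where 21.6% and 24.6% were called. In both of these comparisons Tet1 passed the filter only through naive arrays. Tet3, lower in the tumor group, passed it only through naive and GVHD arrays.

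**Figure D3:**
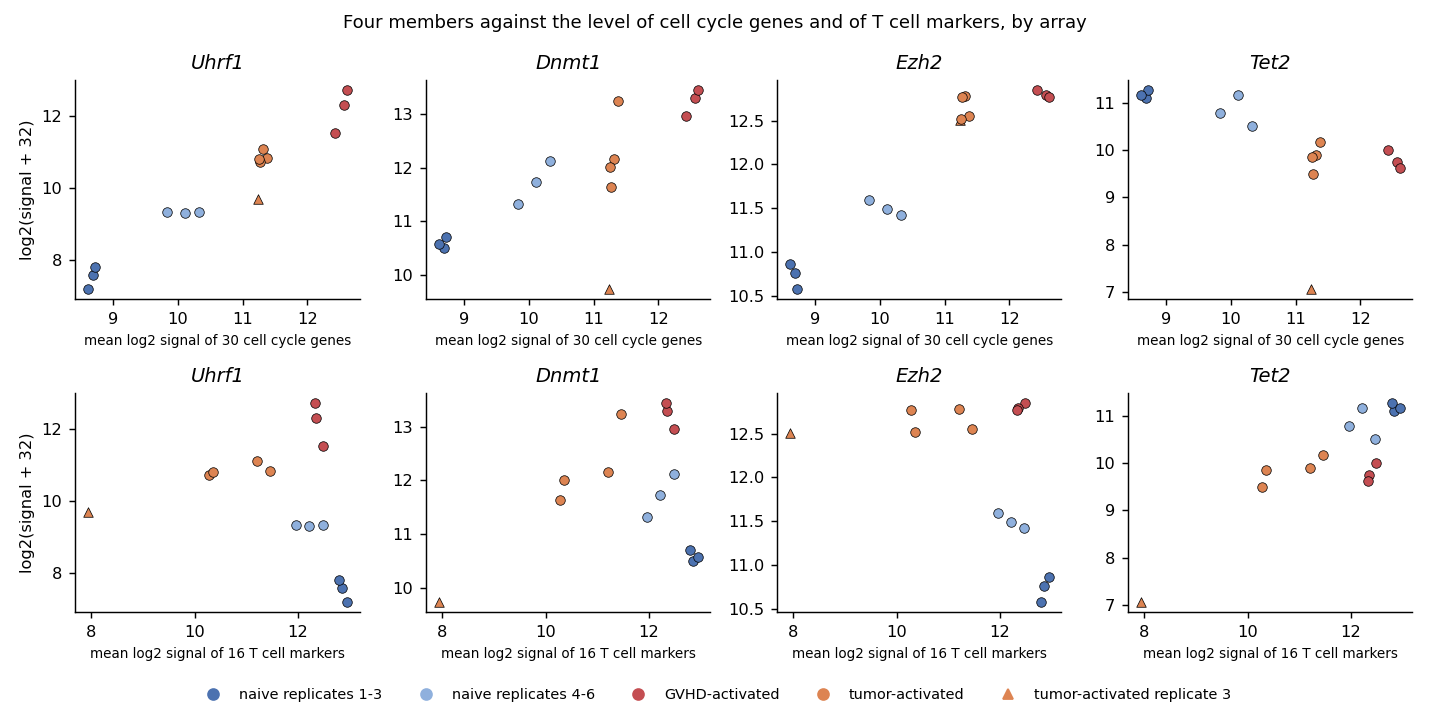
Log2(signal + 32) of Uhrf1, Dnmt1, Ezh2 and Tet2 on each of 14 arrays, against the mean log2 signal of 30 cell cycle genes (top) and of 16 T cell markers (bottom), coloured by group. The groups fall into separate clusters, so no correlation is given. Tumor-activated replicate 3 (triangle) has a T cell marker mean of 7.93, against 10.3 to 12.9 on the other arrays, and is lowest of the 14 for Dnmt1 and Tet2 but not for Ezh2.

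For each member the 3 genes with the most similar signals over the 14 arrays were found. Likeness was Pearson's r of log2 signals, which is set mostly by the differences between groups and is given as a description. Uhrf1 ran with Atad2 (0.97), Lig1 (0.97), the DNA ligase that joins Okazaki fragments, and Mcm5 (0.97), a subunit of the replicative helicase. Ezh2 ran with Nek2 (0.98), a mitotic kinase, Cdc6 (0.98), which loads the helicase, and Mlec (0.98). The nearest genes of Dnmt1 were Atp10a (0.94), Haspin (0.93), a mitotic histone kinase, and Topbp1 (0.93), a replication checkpoint protein, and those of Eed were Gins4 (0.93), Anp32e (0.92) and Tardbp (0.90).

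Mbd2 ran with Il12rb1 (0.97), a cytokine receptor chain, Coro7 (0.95) and Myo1g (0.94). Tet2 ran with Mau2 (0.99), which loads cohesin, Chd3 (0.99), a NuRD remodeller, and Mapk8ip3 (0.98). Tet1 ran with 1300002E11Rik (0.98), 5830428M24Rik (0.98) and St8sia1 (0.97), and Tet3 with Arhgap27 (0.91), Dio2 (0.89) and Vipas39 (0.86). Dnmt3a ran with Btbd7, Kidins220 and Ap1ar (0.95 each), and Dnmt3b with Ammecr1l (0.97), Ccni (0.96) and Tab2 (0.96).

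Cell cycle genes rose in both activated groups beside Uhrf1 and Ezh2. In GVHD 29 of 30 rose and none fell, with a median change of 3.81, and in the tumor comparison 20 rose and none fell, with a median of 1.32. At limma's unadjusted p under 0.05 the counts were 30 and 22 higher and 0 lower in both. In GVHD Bub1b, a spindle checkpoint kinase, went from 86.3 ± 59.6 to 8712 ± 559 (SD, n = 3 each), and Rrm2, a subunit of ribonucleotide reductase, from 433 ± 15.3 to 27064 ± 2652. In the tumor comparison Ccne2, a G1 to S cyclin, went from 192 ± 38.5 (n = 3) to 1173 ± 259 (n = 5). The proliferation marker Mki67 rose 35.3-fold in GVHD and did not pass in the tumor comparison (0.38, adjusted p = 0.45). Summed cell cycle signal was 283966 to 303342 in GVHD, 110217 to 153355 in the tumor group, 53240 to 75619 in naive replicates 4 to 6 and 26099 to 27402 in naive replicates 1 to 3. The means of Uhrf1, Dnmt1, Ezh2 and Eed had the same order, but only for Uhrf1 was every step called. Tumor and naive replicates 4 to 6 were not called apart for Dnmt1 (0.03) and Eed (0.06), nor tumor and GVHD for Ezh2 (-0.18) and Eed (-0.20). The part of cell division in the members' changes was not tested.

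Partners of DNA methylation moved in both directions. Of 23 measured, 5 rose and 1 fell in GVHD (median -0.08), and 7 rose and 4 fell in the tumor comparison (median -0.35). Of all genes, 9.58% rose and 12.2% fell in GVHD and 16% and 15.3% in the tumor comparison, with medians of -0.11 and -0.06. Hells, a remodeller that aids methylation of repeats, rose 7.89-fold in GVHD, from 190 ± 96.2 to 1623 ± 371, and 2.80-fold in the tumor comparison, from 1016 ± 65.2 to 2911 ± 284. Its naive sets thus lay far apart (190 and 1016), and the size of its GVHD rise depends on the control set. Ahcy, which clears the by-product of methyl transfer, rose 5.16-fold and 1.88-fold, and Pcna, the sliding clamp at the replication fork, 3.20-fold and 1.68-fold. Cdca7, the partner of Hells, and Idh3a of the citrate cycle rose in both as well. Zbtb4, a zinc finger reader of methylated CpG, was the single partner that fell in GVHD (8.38-fold, from 2075 ± 614 to 213 ± 35.8), and it fell 4.37-fold in the tumor comparison, where Ogt, Gadd45b and Ctcf fell too. Idh1 (6.43-fold) and Idh2 (3.35-fold), which make the 2-oxoglutarate that Tet enzymes use, rose in the tumor comparison, where macrophage and mast cell genes rose as given above.

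Against the assigned controls no other Polycomb gene of the lists was called higher beside Ezh2, in both comparisons, and Eed, in GVHD only. Of 11 partners of PRC2 and H3K27 demethylases, none rose in either comparison, 2 fell in GVHD (median -0.32) and 4 in the tumor comparison (median -0.19). At limma's unadjusted p under 0.05, 4 were higher and 3 lower in GVHD, and 1 higher and 5 lower in the tumor comparison. Kdm6b, an H3K27 demethylase, fell 5.83-fold in GVHD, from 11110 ± 3345 to 1826 ± 178, and 2.88-fold in the tumor comparison. Its naive sets differed by -1.94 (limma's adjusted p = 0.047), with naive replicates 4 to 6 at 2792 ± 183. Against those the GVHD change was -0.61 and did not pass (limma's adjusted p = 0.43). Phf1, an accessory PRC2 subunit, fell 2.53-fold and 3.81-fold. Ezh1, the paralogue of Ezh2, fell 2.20-fold in the tumor comparison, from 2226 ± 171 to 1100 ± 456, as did Jarid2 (3.56-fold). Of 16 subunits of PRC1, the complex that binds H3K27me3 and ubiquitinates H2A, none rose either, 4 fell in GVHD (Cbx7, Rnf2, Bmi1 and Pcgf6) and 5 in the tumor comparison (Cbx7, Phc3, Kdm2b, Yaf2 and Ring1), with 0 and 2 higher at an unadjusted p under 0.05. With the controls exchanged, Rbbp7 was called higher in GVHD (0.76), and Suz12 (1.05), Mtf2 (0.82), Cbx6 (1.77) and Pcgf6 (0.82) in the tumor group. Cbx7, a chromodomain reader, fell 4.50-fold and 3.84-fold. Called rises made up 9.58% and 16% of all genes in the 2 comparisons and called falls 12.2% and 15.3%, and in the tumor comparison T cell genes fell too.

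**Figure D4:**
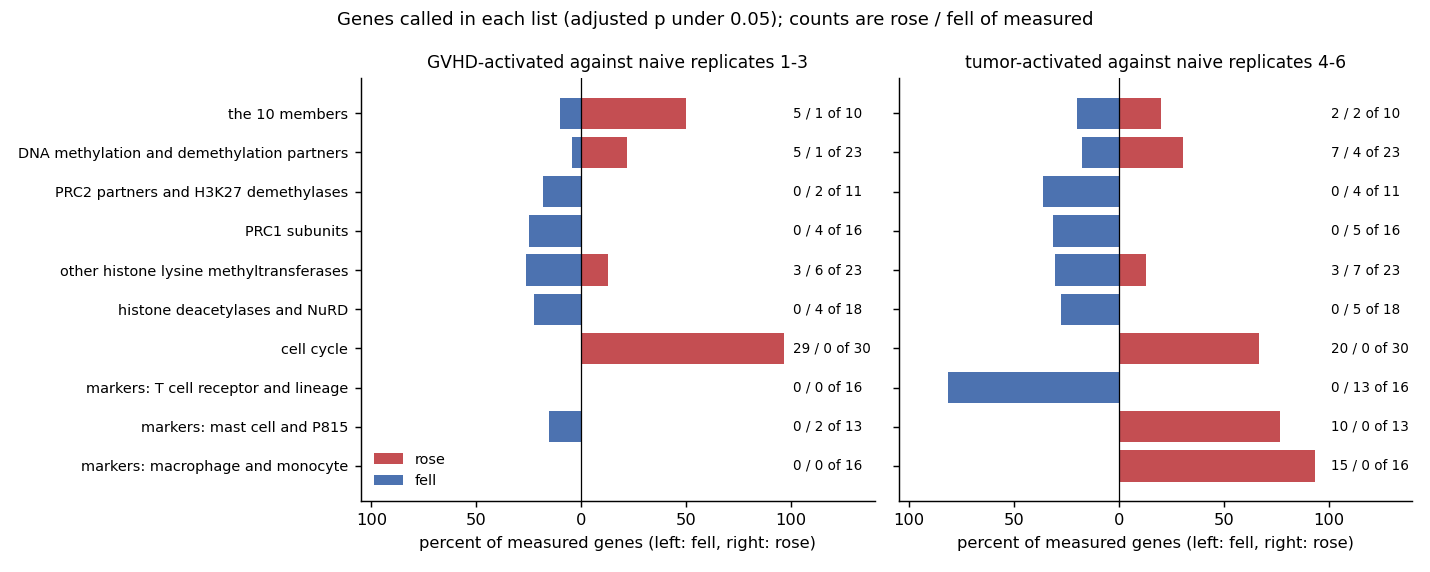
Percent of measured genes of each list that rose (right, red) or fell (left, blue) at an adjusted p under 0.05, in GVHD-activated against naive replicates 1 to 3 and in tumor-activated against naive replicates 4 to 6, with the counts printed beside the bars. Cell cycle genes rose in both comparisons, 29 and 20 of 30, and the T cell, mast cell and macrophage markers moved mostly in the tumor comparison.

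Among Treg genes known for demethylated regions, Foxp3 itself could not be tested. Of 5 other Treg genes with known demethylated regions (Il2ra, Ctla4, Ikzf2, Ikzf4 and Tnfrsf18), Ikzf4, which encodes Eos, fell 2.71-fold in GVHD, from 1642 ± 108 to 591 ± 108, with 2 higher and 1 lower of the 5 at limma's unadjusted p under 0.05. Against naive replicates 4 to 6, Ctla4 (1.37) and Tnfrsf18 (1.42) were called higher in GVHD and Ikzf4 lower (-2.41). None passed in the tumor comparison (0 higher and 2 lower at limma's unadjusted p under 0.05). Il2ra, the IL-2 receptor alpha chain, read 3687 ± 811 and 13941 ± 383 in naive replicates 1 to 3 and GVHD, a change of 1.93 that did not pass (adjusted p = 0.086). Of 18 factors known to bind the Foxp3 locus, 2 rose and 4 fell in GVHD, and none rose (1 at an unadjusted p under 0.05) and 11 fell in the tumor comparison. Rises made up 9.58% of all genes in GVHD, and falls 12.2% there and 15.3% in the tumor comparison, where 13 of 16 T cell genes fell as well. Bach2, a repressor of effector programs, fell 14.2-fold in GVHD, from 2906 ± 224 to 178 ± 49.9, and 10.9-fold in the tumor comparison, from 2817 ± 784 to 288 ± 180. Runx3 rose 4.88-fold and its partner Cbfb 1.63-fold in GVHD, and the orphan receptor Nr4a3 fell 5.60-fold there and 4.57-fold in the tumor comparison.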

How the data were processed

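The deposited tables hold 1 intensity per probe set, on a linear scale. Per the submitters' processing notes, the authors computed them with MAS5 (version not given in the sources used), from Trizol RNA labelled with biotin per the labels' protocols. Their 2% trimmed mean was 1500 on the 3 GVHD arrays and 500 on the other 11, and each array was rescaled to 500. Log2 was taken after adding 32, which understates changes of dim genes. Probe sets with a signal of at least 100 in at least 3 arrays were kept. Of 35877 listed probe sets, 34945 had 1 gene symbol, 932 had several and were not used, and 9160 more were not listed. Each gene was counted by the brightest of its probe sets (mean log2 signal).

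Tests used limma 3.58.1 in R 4.3.3 (lmFit, then eBayes with trend), with a mean for each of 4 groups, all 14 arrays sharing the spread, and Benjamini-Hochberg adjustment over 22143 probe sets, and were tested on simulated data. "Rose" and "fell" mean an adjusted p under 0.05. The number of arrays limits the precision. No gene list was put to a set test. The members and lists were chosen with earlier results of these data known. The genes named are the 10 members, per list up to 4 called genes in each direction with the largest change in either activated-against-naive comparison, and the 3 genes most like each member. Cd3e, Cd4, Arg1, Trap1a and Mki67 were named after their values were seen, as were Il2ra and the remaining calls of lists with few. Alternatives were other offsets, filters, scalings, centring on T cell genes, probe set rules, fits, controls and left-out arrays.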

Additional observations from a re-analysis of the deposited data

Results flagged for a closer look

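Tumor-activated replicate 3 lay far from the other 4 tumor arrays, by Dixon's test, for 4 of the 22 probe sets, each time as the lowest. It read 715 against 3190 to 3827 for Dnmt1 (1422946_a_at), 206 against 579 to 740 for Dnmt3a (1460324_at), 802 against 1661 to 2157 for Uhrf1 (1415810_at) and 101 against 689 to 1126 for Tet2 (1438781_at). Chance flags about 1 in 20 groups. The same array had the lowest T cell signal of the 14, as given above, and its part in these values was not tested.

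The tumor and GVHD changes differed in the fit's own test for Uhrf1 (tumor minus GVHD -3.34, adjusted p = 0.00049) and Dnmt1 (-2.60, adjusted p = 0.046).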

How the results depend on the processing

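With each of the 14 arrays left out in turn, the members called ranged from 3 to 5 higher and 1 to 3 lower in GVHD, were 2 higher and ranged from 1 to 3 lower in the tumor comparison, from 1 to 5 lower for the difference of changes, and from 1 to 4 higher between the naive sets. Over all probe sets these ranges were 1321 to 2891 and 1629 to 4409 in GVHD, and 1994 to 3589 and 1734 to 4073 in the tumor comparison. They were 320 to 1067 lower for the difference and 284 to 2333 higher between the naive sets. The higher count in GVHD (5) became 3 under quantile normalization, the replicate block and the other naive set, and 2 when centred on T cell genes. The lower count (1) became 2 with the larger offset or quantile normalization, 0 when centred, 4 with only the 2 groups fitted, and 3 with array weights, with tumor array 3 and naive array 6 both left out, with the other naive set or with all 6. In the tumor comparison the higher count (2) became 6 when centred and 1 with the block, and the lower count (2) became 0 when centred and 1 with the mean of probe sets, the 2 groups alone or the block. For the difference the lower count (2) became 1 with an offset of 8, no filter, the block or no trend, 0 when centred, 5 with array weights and 4 with both arrays left out. Between the naive sets the higher count (2) became 1 with no filter or no trend, 0 when centred or with the block, 6 with array weights, and 4 under median scaling, the 2 groups alone or both arrays left out, and the lower count (0) became 1 with array weights.

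Centring on T cell genes moved the median change of all probe sets from -0.12 to 1.85 in the tumor comparison and from -0.13 to 0.34 in GVHD, and turned the tumor split from 3115 higher and 3639 lower to 15192 and 37. Under it these values changed sign: in the tumor comparison Dnmt3a (1.80), Dnmt3b (0.92), Tet2 (0.44), Tet3 (1.10) and Mbd2 (1.56), in GVHD Tet3 (0.0017), in the difference Tet1 (1.17), Tet2 (1.36), Tet3 (1.10), Ezh2 (0.56) and Eed (0.79), and between the naive sets Tet2 (0.29). Median scaling turned Dnmt3a in the tumor comparison (0.052) and Tet2 between the naive sets (0.0758, and 0.21 with the mean of probe sets). Array weights turned Dnmt3a (0.04), Tet3 (0.37), Mbd2 (0.10) and Eed (-0.013) in the tumor comparison, Tet2 (0.056) and Tet3 (0.66) in the difference and Mbd2 (-0.25) between the naive sets. Eed in the tumor comparison also turned under quantile normalization (-0.12) and the mean of probe sets (-0.25), and Dnmt3b in the difference with the larger offset (-0.0103). With both arrays left out Dnmt3a turned in the tumor comparison (0.40) and Tet2 in the difference (0.40). Other controls turned Dnmt3a in the tumor comparison (0.74 and 0.28 with all 6) and Tet3 in GVHD (0.78 and 0.15). Deviations of same-numbered arrays from their group means correlated at -0.04 to 0.09 in GVHD and at -0.51 and 0.09 in the tumor comparison. So few pairs cannot decide whether arrays were paired, and no label gives a pairing. The replicate block turned Dnmt1 (-0.10) and Dnmt3a (0.84) in the tumor comparison, Tet2 in the difference (0.22) and Dnmt3a between the naive sets (-0.58), and with it Uhrf1 in the tumor comparison no longer passed (1.44, adjusted p = 0.11). Leaving out arrays gave ranges that cross 0 for Dnmt1 (-0.34 to 0.54), Dnmt3a (-0.61 to 0.12) and Eed (-0.0264 to 0.11) in the tumor comparison, Dnmt3b (-0.19 to 0.54), Tet2 (-0.36 to 0.42) and Tet3 (-0.97 to 0.16) in the difference, and Mbd2 (-0.19 to 0.26) between the naive sets. The cause was not tested for any of these. Signals under 100, those of Tet1 in the activated groups and of Tet3 on 7 of 14 arrays, lie near background and limit what their size can show.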

Other observations

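Other histone lysine methyltransferases moved in both directions. Of 23 measured, 3 rose and 6 fell in GVHD (median change -0.67 on the log2 scale), and 3 rose and 7 fell in the tumor comparison (median -0.71). Rises made up 9.58% and 16% of all genes in these comparisons and falls 12.2% and 15.3%, and T cell genes fell too in the tumor comparison. Nsd2, which methylates lysine 36 of histone H3, rose 5.67-fold in GVHD, from 318 ± 64.6 to 1941 ± 273 (SD, n = 3 each), and Kmt5a, the methyltransferase of lysine 20 of histone H4, rose 2.37-fold in GVHD and 3.04-fold in the tumor comparison. Suv39h2, which acts on lysine 9 of histone H3, went from 34.3 ± 12.7 (n = 3) to 377 ± 266 (n = 5) in the tumor comparison. Kmt2a, of the MLL family, fell 2.81-fold in GVHD and 3.11-fold in the tumor comparison, and Kmt5b fell 2.98-fold and 2.65-fold.

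Histone deacetylases, and subunits of NuRD, the complex that Mbd2 is known to recruit, gave falls and no rises. Of 18 measured, 4 fell in GVHD (Hdac9, Mta3, Hdac10 and Gatad2b) and 5 in the tumor comparison (Chd3, Hdac7, Hdac9, Hdac10 and Hdac1), with median changes of -0.24 and -0.56. At limma's unadjusted p under 0.05, 1 was higher in GVHD and 0 in the tumor comparison. Hdac9, a class IIa deacetylase, went from 200 ± 74.7 to 19.1 ± 16 in GVHD (SD, n = 3 each) and from 360 ± 78.0 (n = 3) to 139 ± 28.5 (n = 5) in the tumor comparison. Called rises made up 9.58% and 16% of all genes and called falls 12.2% and 15.3%, and T cell genes fell in the tumor comparison. The part of other cells in these falls was not tested.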
